A study of Mus musculus with 2 samples.

Results

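The distal anchor of the En1 contact is a stretch of 40 kb on mouse chromosome 1, from 123060001 to 123100000 on the mm9 build, whose centre lies 580 kb above that of the bins that hold En1. It consists of 8 of the 844 bins of 5 kb that the contact map holds from position 120180001 up. The 8 bins were selected from their contacts in this same map, because a contact peak with the En1 bins (122490001 to 122510000, 4 bins of 5 kb) lies there. Values of the anchor against the En1 bins are therefore a description of what chose the anchor. The other contacts of the anchor come from the same libraries and are also given as a description, without tests.

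The map is a capture Hi-C map of wild-type mouse limb buds of stage E10.5. Cells of fore- and hindlimbs were fixed in 2% paraformaldehyde and cut with DpnII, the cut ends were ligated, and the En1 region was enriched with custom probes. The 2 samples of the series, both wild type and both carrying replicate number 2 in their titles, were merged by the authors into 1 map, so no spread between samples could be measured. Whether they are separate pools of embryos or parts of 1 library is not given in the sources used here. Forelimb and hindlimb, and all cell types of the limb bud, are averaged in it, and the map holds no mutant to compare with.

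En1 encodes Engrailed-1, a homeobox transcription factor that the ventral ectoderm of the limb bud needs for the dorsal-ventral pattern of the limb. Genes of this kind are often controlled by enhancers far away on the same chromosome, and the series is about the elements that sustain En1 activity in the growing limb. Distant positions are brought together when cohesin extrudes a loop of chromatin. Extrusion often halts at the DNA-binding protein CTCF, and loops form most often between CTCF motifs that point towards each other. Such loop bases often lie at borders between contact domains, stretches of chromatin whose parts contact each other more than they contact the neighbouring stretch.

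The anchor overlapped no annotated gene (GENCODE M1). Its nearest protein-coding gene was Insig2, whose product holds back cholesterol synthesis in the endoplasmic reticulum. Insig2 lay on the side of higher coordinates, called the Insig2 side below, while En1 lay on the side of lower coordinates, called the En1 side. The 8 bins are numbered from 1 at 123060001 to 8 at 123095001. They had GC contents between 40.1 and 48.7% and held 8 to 17 DpnII sites each, against medians of 44.6% and 12 sites over the 844 bins. Bin 4, which held the peak, had a GC content of 41.1% and the fewest sites of the anchor, 8.

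The core of the CTCF motif, 12 letters searched on both strands with at most 1 mismatch, occurred once in each of bins 3, 4, 5 and 6 and in none of the other anchor bins. Such matches were common, since 295 of the 844 bins (34.95%) held at least 1. Exact matches occurred in 29 bins (3.436%), none of them in the anchor, and the nearest one lay just above it, in the bin at 123110001. The matches of bins 4 and 5 were on the minus strand, which points towards En1, and those of bins 3 and 6 on the plus strand. At the other end of the contact, from 50 kb below to 30 kb above the En1 bins, there were 11 matches, 6 on the plus strand, which points towards the anchor, and 5 on the minus strand, which points away from it. The plus-strand matches included those 33 kb and 14 kb below En1 and 1 inside the En1 intron. The minus-strand matches included 1 between these, 23 kb below En1, and the only exact match of this end, at 122447015. This exact match overlaps a plus-strand match at 122447016 with 1 mismatch. The same site was thus counted once on each strand, and its letters match in both orientations. Both ends of the contact thus held matches in both orientations. The sequences shown are the 4 of the anchor, the exact match of each end, and 4 of the others at the En1 end, in both orientations. Each is read 5′ to 3′ on the strand of its match from the NCBIM37 genome, the assembly of mm9, with 50 bases on either side of the core. Capitals mark the core.
Anchor bin 3, chr1:123071702-123071813, plus strand: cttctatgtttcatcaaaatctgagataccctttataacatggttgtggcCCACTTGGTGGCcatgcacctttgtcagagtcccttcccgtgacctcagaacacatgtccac
Anchor bin 4, chr1:123077035-123077146, minus strand: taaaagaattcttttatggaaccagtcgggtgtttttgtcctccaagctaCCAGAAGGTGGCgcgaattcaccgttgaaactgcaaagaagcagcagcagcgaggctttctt
Anchor bin 5, chr1:123083220-123083331, minus strand: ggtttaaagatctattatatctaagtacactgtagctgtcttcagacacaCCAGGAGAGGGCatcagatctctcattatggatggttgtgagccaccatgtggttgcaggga
Anchor bin 6, chr1:123087553-123087664, plus strand: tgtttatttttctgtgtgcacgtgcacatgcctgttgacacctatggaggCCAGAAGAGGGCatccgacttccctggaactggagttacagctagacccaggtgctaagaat
Above the anchor, chr1:123112570-123112681, minus strand: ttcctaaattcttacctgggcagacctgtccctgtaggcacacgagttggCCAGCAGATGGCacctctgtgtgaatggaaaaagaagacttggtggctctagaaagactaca
45 kb above Marco, below En1, chr1:122446965-122447076, minus strand: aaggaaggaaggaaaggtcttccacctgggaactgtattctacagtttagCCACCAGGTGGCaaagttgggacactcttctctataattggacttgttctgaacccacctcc
33 kb below En1, chr1:122465741-122465852, plus strand: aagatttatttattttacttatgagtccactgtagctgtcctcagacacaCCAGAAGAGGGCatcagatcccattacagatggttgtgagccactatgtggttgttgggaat
23 kb below En1, chr1:122476054-122476165, minus strand: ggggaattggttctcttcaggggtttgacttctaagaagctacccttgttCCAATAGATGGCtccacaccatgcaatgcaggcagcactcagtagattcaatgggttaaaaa
14 kb below En1, chr1:122484849-122484960, plus strand: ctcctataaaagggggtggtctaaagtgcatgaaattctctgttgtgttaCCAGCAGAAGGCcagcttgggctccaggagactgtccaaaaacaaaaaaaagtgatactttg
En1 intron, chr1:122503247-122503358, plus strand: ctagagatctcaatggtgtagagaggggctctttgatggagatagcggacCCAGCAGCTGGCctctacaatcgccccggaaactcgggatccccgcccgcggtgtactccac
The exact matches are the one above the anchor and the one at 122447015, and all the others differ from the core pattern at 1 position. Compared position by position without gaps, the sequences of anchor bin 5 and of the match 33 kb below En1 were identical at 63 of 112 positions (56.2%). That was more than any other pair among the matches near both ends. Both sequences also hold the run atggttgtgagccac, at shifted positions, so the count is not the identity of a gapped alignment. Whether the shared letters belong to a repeat with copies elsewhere in the genome was not tested. The count therefore does not show sequence particular to the ends of the contact. A match of letters does not show that CTCF bound there, and no binding data were used here.

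The anchor was well covered. Of 6484654 read pairs in the map, 134040 (2.07%) had an end in it, and 92960 of these led out of it. Bin totals within the anchor ranged from 7886 read pairs in bin 6 to 28222 in bin 2, against a median of 11929 over the bins from the lower limit of the rule. Single pairs of 5 kb bins were thinner, with a median of 4 read pairs where any were found. The bin just above the anchor, 123100001 to 123105000, had 3 read pairs although it holds 26 DpnII sites, and was not measured. All intervals below are 95% intervals and cover counting error only, because no spread between samples could be measured. The reads also carry no molecular identifiers, which the intervals do not take into account.

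Contacts were compared with the number expected at the same distance. For each pair of bins, the mean balanced contact signal of that distance was turned into an expected count through the 2 balancing factors, which correct for how well each bin was covered. The ratio of observed to expected read pairs is called the ratio below, and a ratio of 1 means as many contacts as an average pair of the map at that distance.

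The anchor and the 4 En1 bins were joined by 4261 read pairs against an expected count of 475, which is a ratio of 8.97 (exact Poisson interval 8.70 to 9.24). These were 5.77% (Wilson interval 5.61 to 5.95) of the 73794 read pairs that the anchor formed at 50 kb or more, against an expected share of 0.797%. The peak depended on the scale. By balanced signal and by ratio it lay in bin 4, 123075001 to 123080000, and by raw count in bin 3, 123070001 to 123075000. Bins 3 and 4 together held 1713 of the 4261 read pairs (40.2%).

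Along the anchor the contact with En1 rose to bins 3 and 4 and fell again on both sides. Bin 1 had 414 read pairs with the En1 bins, a ratio of 5.33 (4.83 to 5.86). Bin 2 had 696, a ratio of 7.87 (7.30 to 8.48). Bin 3 had 995, the most of any anchor bin, and a ratio of 14.9 (14.0 to 15.9).
Bin 4 had only 718 read pairs but the highest ratio, 17.1 (15.8 to 18.4), because its own total was smaller, 12141 read pairs against 20784 in bin 3. The intervals of bins 3 and 4 overlapped at their ends, so their order on this scale was not resolved by the depth. Bin 5 had 667 read pairs and a ratio of 10.1 (9.34 to 10.9), and bin 6 had 231 and a ratio of 8.26 (7.23 to 9.39).
Bins 7 and 8 closed the anchor with 366 and 174 read pairs and ratios of 5.94 (5.34 to 6.58) and 3.90 (3.34 to 4.53). In balanced signal, bin 4 held 23.5% of the anchor's contacts with En1, against 16.9% of the raw read pairs.

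**Figure D1:**
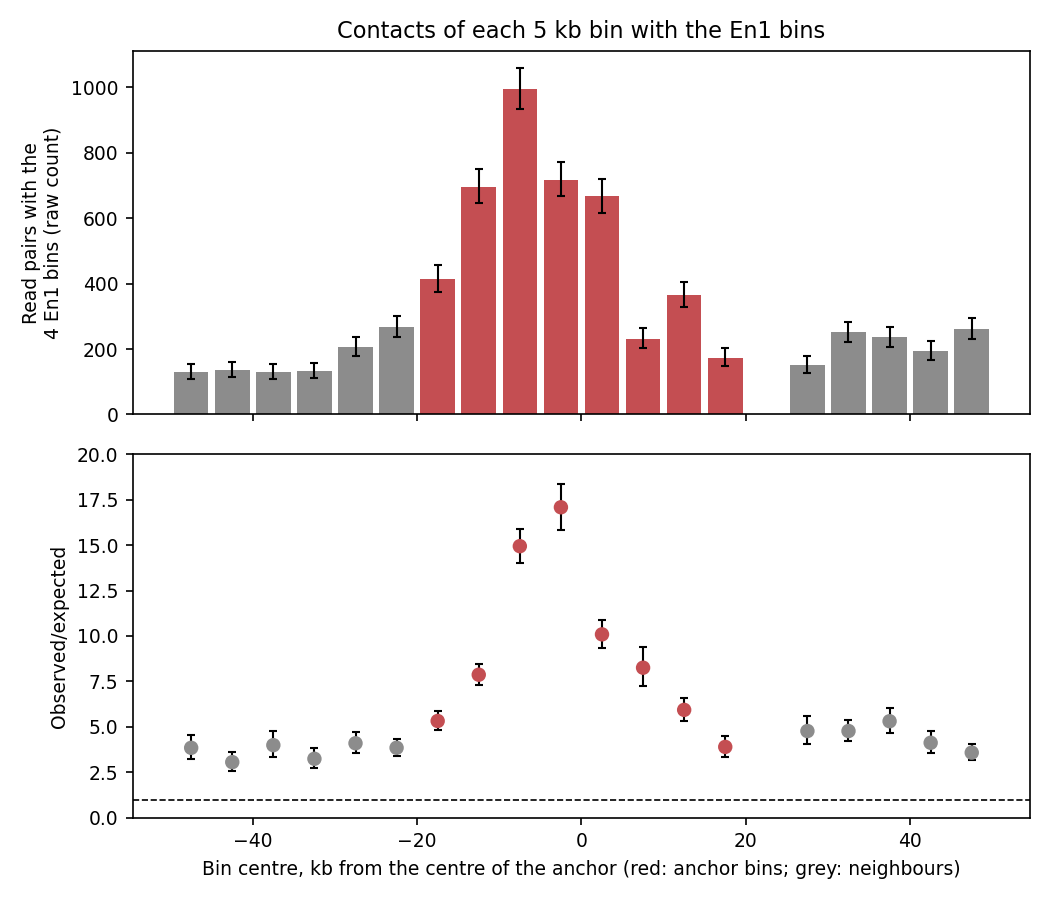
Contacts with the 4 En1 bins for each 5 kb bin of the anchor (red) and its neighbours (grey), plotted by kb from the anchor centre. The upper panel gives raw read pairs with exact Poisson 95% intervals and the lower panel observed/expected ratios, with a dashed line at 1. Raw counts peak in bin 3 (995 read pairs) and ratios in bin 4 (17.1). The gap marks the bin with 3 read pairs.

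The ends of the anchor were set by the rule. Just outside it on the En1 side, the bin at 123055001 had 268 read pairs with the En1 bins, a ratio of 3.85 (3.41 to 4.34), below bin 1. Beyond the unmeasured bin on the Insig2 side, the bin at 123105001 had 151 read pairs and a ratio of 4.77 (4.04 to 5.60), and the bin at 123115001 had a value of 5.31 (4.66 to 6.04). The last of these was higher than bin 8 inside the anchor, with intervals that did not overlap. On the En1 side the bin at 123050001 stood at 4.101 (3.56 to 4.70), and in each of the 8 bins just below the anchor the lower bound was at least 2.57. Raised contact with En1 therefore went on past both ends of the chosen stretch.

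All 32 single pairs of an anchor bin and an En1 bin lay above 1, from 2.70 to 23.6, on 31 to 301 read pairs each, and their lowest lower bound was 1.88. The highest was bin 4 with the En1 bin at 122490001, 218 read pairs against 9.24 expected, a ratio of 23.6 (20.6 to 26.9). The start of the gene, at 122498995, lies in the next bin up, 122495001. Bin 3 with 122490001 followed at 19.2 (17.0 to 21.7), on 274 read pairs, and bin 4 with 122495001 at 18.1 (15.8 to 20.7), on 215. The pair with most read pairs, 301, was bin 3 with 122495001, at 15.9 (14.1 to 17.8). For every one of the 8 anchor bins the En1 bin with the highest ratio was 122490001, the one farthest from the anchor. At 10 kb the peak joined 123070001 with 122490001, on 1008 read pairs, at 19.1 (17.9 to 20.3).

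The peak at the En1 end did not stop at the chosen En1 bins. Outside these, the partner with the highest lower bound was the adjoining bin 122485001 to 122490000, 9 kb below En1, which had 1287 read pairs with the anchor and a ratio of 11.2 (10.6 to 11.8). Bin 4 alone reached 21.4 with it, and expected counts from raw counts alone gave 17.2 for the whole anchor. It was the top of an unbroken run of 19 enriched bins that began at 122395001 and together had 6591 read pairs and a ratio of 4.01 (3.92 to 4.11). One bin of this run, 122470001, rested on 49 read pairs and had a total of only 1014. On the other side of En1 a run of 29 enriched bins led from 122510001 to 122655000, on the way towards the anchor, with 11769 read pairs and a ratio of 3.05 (2.998 to 3.11). Its highest bin was the one next to En1, 122510001, with 770 read pairs and a ratio of 7.63 (7.11 to 8.19).

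Partners were called enriched with at least 10 read pairs and a lower interval bound of the ratio above 1.5, at 50 kb or more from the anchor and outside the En1 bins. By this rule 76 of 674 partners (11.3%) were enriched. Over all 105 windows of 40 kb in the map, the share was 5.00%. Of the 76, 39 lay within 100 kb of the En1 bins, where 40 were tested. Without that stretch, a split made after the values were seen, 37 of 634 (5.84%) remained, near the 5.00% over all windows. The 2 shares are not like for like, since no partners were left out of the 5.00%. The median share of a window was 3.50%. The number of calls for the anchor depended strongly on the expected values. It was 195 when the median signal per distance replaced the mean and 153 when raw counts alone were used. Only 7 calls were left when a partner also had to exceed 1.5 times its own surroundings, 3 to 10 bins away. These 7 were 122480001 and 122485001 below En1, 122060001 and 122065001 in 3110009E18Rik, 122220001 and 122235001 at C1ql2, and 120185001, which rested on 17 read pairs.

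All 76 enriched partners were on the En1 side, where 456 were tested, and 0 of 218 on the Insig2 side. The 2 runs around En1 apart, the enriched stretches were short and weak, and all of the next 8 by lower bound had a ratio under 3. A group of them lay at 820 to 1010 kb from the anchor, beyond En1. The strongest was at 122065001 in the gene 3110009E18Rik, with 127 read pairs against 44.8 expected, a ratio of 2.83 (2.36 to 3.37). Others in this gene were at 122045001, with 105 read pairs and a ratio of 2.20 (1.80 to 2.67), and at 122080001, with 79 and 2.19 (1.73 to 2.72).
In Steap3, which encodes a reductase of iron uptake, the bins at 122100001 and 122160001 had 77 and 134 read pairs and ratios of 2.37 (1.87 to 2.96) and 2.12 (1.77 to 2.51). At C1ql2, which encodes a secreted C1q-like protein, the bin 122220001 lay 12 kb from the gene and had 85 read pairs and a ratio of 2.72 (2.17 to 3.36). Between En1 and the anchor, the bin at 122660001 had 187 read pairs and a ratio of 2.20 (1.89 to 2.53).
Of these 10 named stretches, the best bins at 122485001, 122065001 and 122220001 were called under each of 9 settings. The other 7 were lost under 1 or more, most often with a threshold of 2 or with the local surroundings. Some of the 9 settings could not lose any of the 10. These were a threshold of 1.2, at least 20 read pairs, partners 100 kb or more away, and leaving out bins of low total. The bin at 122160001 stood at 3.43 with raw counts alone.

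Depleted partners, with at least 10 expected read pairs and an upper bound below 1/1.5, lay almost all on the Insig2 side. There were 90 among 698 (12.9%), against 7.50% over all windows. On the Insig2 side they were 88 of 240, and on the En1 side 2 of 458. The 5 stretches with the lowest upper bound all lay more than 150 kb above Ddx18, the last protein-coding gene of the map, where none is annotated. The lowest was the bin at 123620001, with 2 read pairs against 44.2 expected, a ratio of 0.0452 with a counting interval of 0.00548 to 0.163. The bin at 123760001 had 10 where 64.8 were expected, and the bin at 123815001 had 25 where 105 were expected. The bins at 123935001 and 123990001 had 4 each, where 30.6 and 34.2 were expected.

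Contact with distance differed between the sides. On the En1 side, blocks of 50 kb began at 0.743 (0.729 to 0.757) next to the anchor, reached 1.11 (1.07 to 1.14) at 100 to 150 kb, 1.98 (1.91 to 2.05) at 400 to 450 kb and 4.62 (4.50 to 4.75) at 500 to 550 kb. The block at 550 to 600 kb, which holds En1, stood at 8.28 (8.10 to 8.47), and at 7.60 with the En1 bins left out. Beyond En1 the ratio was 1.41 (1.33 to 1.51) at 700 to 750 kb, 2.08 (1.95 to 2.22) at 950 to 1000 kb, over 3110009E18Rik and Steap3, and was 0.934 (0.840 to 1.03) at 1150 to 1200 kb.
The Insig2 side began at 0.803 (0.785 to 0.821) and stood at 0.619 (0.597 to 0.642) at 50 to 100 kb. It was 1.07 (1.04 to 1.11) at 150 to 200 kb, just past Insig2. From 400 to 900 kb it stayed between 0.338 and 0.416. At matched distance, the block at 550 to 600 kb on this side had 301 read pairs and a ratio of 0.381 (0.339 to 0.426), against 7895 read pairs and 8.28 on the En1 side.

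**Figure D2:**
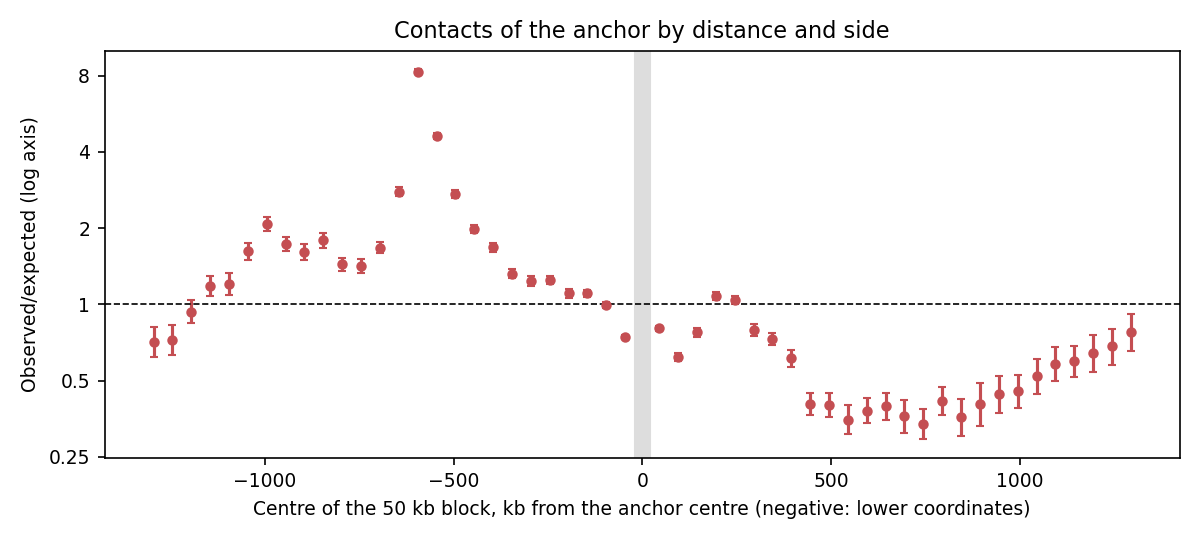
Observed/expected contacts of the whole anchor in blocks of 50 kb by kb from the anchor centre, on a log axis. Bars are exact Poisson 95% intervals, the grey band is the anchor and negative distances are the En1 side. The peak of 8.28 lies in the block that holds En1, and ratios on the Insig2 side lie between 0.338 and 0.416 from 400 to 900 kb.

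Within 1 Mb, the anchor sent 24353 of 85489 read pairs, 28.5% (Wilson interval 28.2 to 28.8), to the Insig2 side, where 44.5% were expected. Its contacts stood at 0.717 (0.708 to 0.726) of expectation on that side and at 1.44 (1.43 to 1.45) on the En1 side, or 1.36 there without the En1 bins. The skew was small near the anchor: within 300 kb the share was 42.8%, where 45.8% were expected.

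The side share changed along the anchor. Of the read pairs from 50 kb to 1 Mb away, bin 1 sent 25.6% (24.8 to 26.5) to the Insig2 side, bin 2 22.9% (22.3 to 23.7) and bin 3 the least of all, 21.5% (20.7 to 22.3). The peak bin 4 was like bin 3, at 21.7% (20.8 to 22.7). From there the share climbed to 27.2% (26.4 to 28.1) in bin 5, 29.6% (28.3 to 31.0) in bin 6, 32.4% (31.5 to 33.4) in bin 7 and 33.6% (32.4 to 34.9) in bin 8. Expected shares moved far less, from 48.4% in bin 1 to 46.3% in bin 7. Without the En1 bins the order of the 8 bins was the same, with 23.7% in bin 3, 24.2% in bin 4 and 34.7% in bin 8. The step from bin 4 to bin 5 was the largest between neighbours and larger than their counting intervals.

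**Figure D3:**
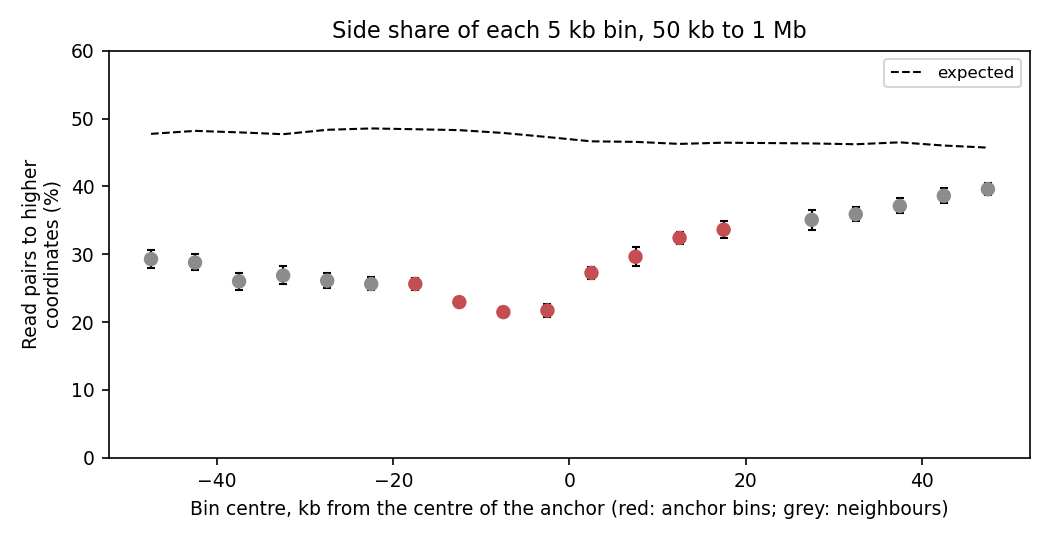
Share of read pairs, from 50 kb to 1 Mb away, that go to higher coordinates, for each anchor bin (red) and its neighbours (grey), with Wilson 95% intervals. The dashed line is the expected share. The share is lowest in bins 3 and 4 (21.5 and 21.7%) and climbs from bin 5 into the bins above the anchor, and every bin shown lies below its expected share.

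The anchor also held a border between contact domains. The insulation score, the log2 of the mean balanced signal across a bin (150 kb on either side) relative to the median bin, fell from −0.51 in bin 1 to −0.70 in bin 4 and was −0.63 in bin 8. Its minimum, −0.70 (counting interval −0.72 to −0.67), was in bin 6, at 123085001. Bins 5 and 7 scored −0.68 and −0.69, so the border was placed to the anchor but not to a single bin. With 100 kb on either side the minimum moved to bin 4, with 250 kb it was shallower, at −0.44, and in raw counts it was −0.17, in bin 5. This was 1 of 9 borders found. The deepest of the map, −1.35, was at 122470001, 24 kb below En1, in a bin of low coverage, and the next on the Insig2 side, −0.92, was at 123460001 in Ddx18. With the border placed in bin 6, En1 and bins 1 to 5 of the anchor lay at the 2 ends of 1 domain of 610 kb. Bins 7 and 8 lay in the next domain.

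The shares by domain pool all 8 anchor bins, which lie on both sides of the border. Of the anchor's read pairs at 50 kb or more, 54.1% (53.7 to 54.5) went to the En1 domain, where 37.4% were expected. This was a ratio of 1.79, or 1.63 without the En1 bins. The domain below it, 122055001 to 122470000, took 14.0% where 9.13% were expected, a ratio of 1.90 (1.86 to 1.93). The next domain on the Insig2 side, called the domain above the anchor although it begins at bin 7, holds Insig2, Ccdc93 and Htr5b. It took 17.7% where 27.0% were expected, a ratio of 0.811 (0.797 to 0.825). Beyond that domain the ratio was 0.440 (0.426 to 0.453), and below 122055001 it was 0.976 (0.952 to 1.00). The domain below En1, past the deepest border of the map, was thus contacted at a ratio close to that of the En1 domain, and the domain next to the anchor on the other side at a lower one.

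The lower and upper bins of the anchor contacted different parts of the En1 end, a comparison made after the values had been seen. Bins 5 to 8 gave 1438 of the 4261 read pairs with the En1 bins, 33.7% (32.3 to 35.2), where 42.2% were expected. With the 20 kb just above En1 the share was 33.5% (31.7 to 35.3), where 42.7% were expected. With the 20 kb just below En1 it was 44.8% (43.0 to 46.5), where 40.7% were expected, and with the block from 122450001 to 122470000 it was 48.7% (46.1 to 51.3), where 41.3% were expected. Over the 6 blocks of 20 kb below the En1 bins these shares ran from 44.7 to 48.7%. Over the 11 blocks from En1 up they ran from 33.5 to 39.7%, so the ranges did not overlap. The interval of 1 of the 6 blocks and of 2 of the 11 included the expected share.

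Set against expectation, bins 5 to 8 had 0.699 (0.655 to 0.745) times the ratio of bins 1 to 4 with the En1 bins. In the block from 122450001 to 122470000 they had 1.35 (1.21 to 1.5) times the ratio of bins 1 to 4. All 6 blocks below En1 were above 1 on this quotient, and all 11 blocks from En1 up below 1. Where the balancing factors were left out of the expected counts, 1 of 6 was above 1 below En1 (0.842 to 1.00) and 11 of 11 below 1 from En1 up (0.498 to 0.691). The order of the ranges was the same, but on which side of 1 the blocks below En1 lay depended on balancing, since bins 1 to 4 had more reads in all, 87167 against 58818. With the block from 122450001 to 122470000 the highest anchor bin was bin 7, at 6.13, where bin 4 had 4.25. With the block next to it, 122470001 to 122490000, bin 4 was highest again at 14.3, and bins 5 to 8 still stood at 7.17 to 10.9.

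**Figure D4:**
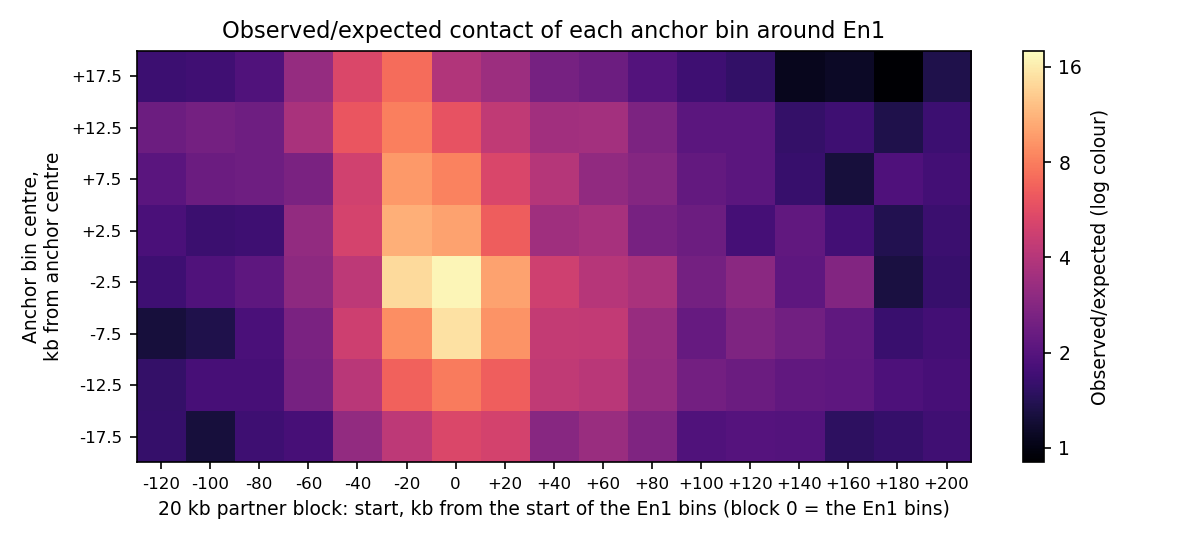
Observed/expected contact of each anchor bin (rows, by kb from the anchor centre) with blocks of 20 kb around En1 (columns, by kb from the start of the En1 bins), on a log colour scale. The brightest cell, 17.1, joins bin 4 to the En1 bins. In the columns from 0 to the right bin 8, the top row, is darkest.

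**Figure D5:**
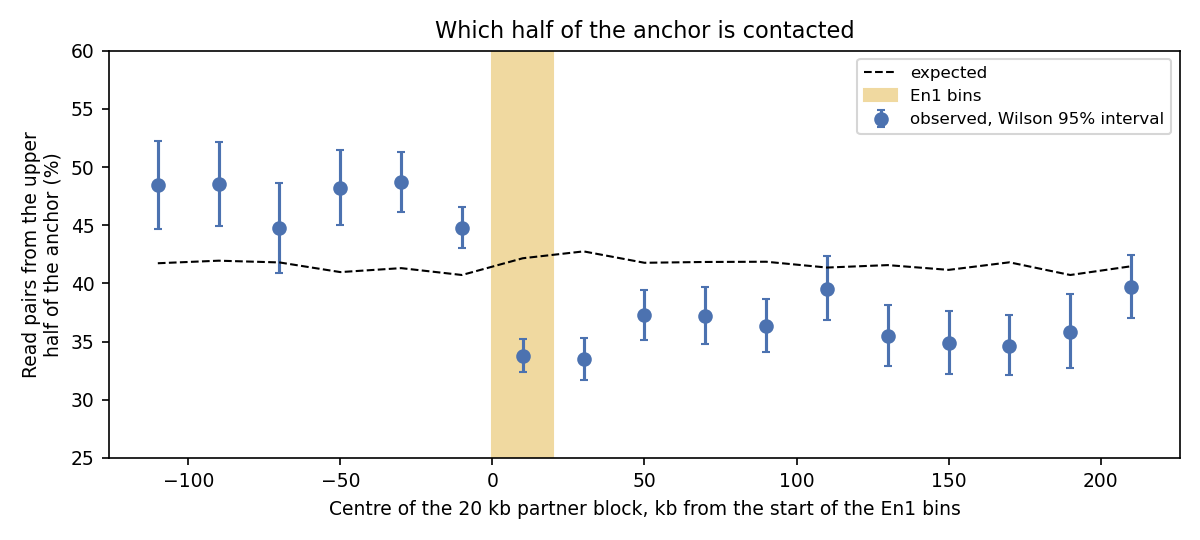
Share of the anchor's read pairs that came from its upper bins 5 to 8, for blocks of 20 kb around En1 (shaded), with Wilson 95% intervals and the expected share dashed. The 6 blocks below En1 lie between 44.7 and 48.7%, above their expected shares, and the 11 blocks from En1 up lie between 33.5 and 39.7%, below theirs.

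A difference of the same kind appeared between whole domains. The En1 domain and the domain below it share read pairs with these blocks, so this is not separate evidence. Relative to bins 1 to 4, bins 5 to 8 stood at 0.826 (0.809 to 0.843) in the En1 domain and at 1.2 (1.15 to 1.25) in the domain below it. They stood at 1.33 (1.28 to 1.37) in the domain above the anchor and at 1.19 (1.12 to 1.26) beyond it. Bins 1 to 5 themselves lie in the En1 domain and bins 7 and 8 in the domain above the anchor. The domain quotients were not recomputed without the balancing factors. On which side of 1 they lie may therefore depend on balancing, as it did for the blocks below En1. In the domain above the anchor, bin 7 was highest, at 1.08, and bin 1 lowest, at 0.647. In the En1 domain bin 4 was highest, at 2.3, and bin 8 lowest, at 1.23.

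The anchor was also set against the starts of the genes. The bin of the En1 start had 1265 read pairs with the anchor and a ratio of 9.31 (8.80 to 9.84). Of the other 24 protein-coding starts, 2 (8.33%) were enriched, 0 depleted and 22 not called, 3 of them with under 10 read pairs, and the median ratio was 1.06. Among all partners tested 11.3% were enriched, so this share says nothing particular about gene starts. The enriched ones were C1ql2, with 62 read pairs and a ratio of 2.52 (1.94 to 3.24), and Marco, a scavenger receptor gene of macrophages, with 102 and 2.13 (1.73 to 2.58). Both calls were lost with expected counts from raw counts alone, where C1ql2 stood at 1.35, and with a threshold of 2. The start of Steap3 had 25 read pairs and a ratio of 1.84 (1.19 to 2.72), and 0.634 with raw counts alone.

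Starts close to the anchor were near or below expectation. Insig2 had 233 read pairs and a ratio of 0.838 (0.734 to 0.952). Ccdc93, whose product takes part in endosomal recycling, had 304 and 1.15 (1.02 to 1.28). Htr5b, a serotonin receptor gene, had 134 and 0.816 (0.683 to 0.966), and Ddx18, an RNA helicase gene, had 127 and 0.789 (0.658 to 0.939). With raw counts alone Ccdc93 stood at 1.95, and Htr5b and Ddx18 stood at 1.12 and 1.16, so the side of 1 of these last genes was not settled. The start of the lincRNA B230209K01Rik, 75 kb from the anchor on the En1 side, had 374 read pairs and a ratio of 1.17 (1.06 to 1.29).

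Among the 105 windows of 40 kb laid end to end over the map, the anchor held the next to highest partner by lower bound, 11.7, after the window at 122460001, whose best partner was anchor bin 4 (949 read pairs, ratio 15.1, lower bound 14.2). The window at 122500001 ranked 3 by the same measure, and its best partner was again anchor bin 4. The anchor ranked 9 by its total of read ends, 8 by its share of enriched partners and 17 by its share of depleted ones of the 105 windows. In these ranks the En1 bins, which chose the anchor, counted as partners. Its enriched share here was therefore 80 of 678 (11.8%), against 76 of 674 (11.3%) without them, and the rank without them was not computed. The anchor's rank for the highest partner follows from how the anchor was chosen, since that partner was the En1 bin at 122490001. The windows at 122460001 and 122500001 overlap the En1 bins, so their best partner shows that contact from the other end. Among the 55 windows with 1 Mb of map on both sides, the anchor's share of contacts to higher coordinates was the lowest relative to expectation, 0.641. This value includes the contacts with the En1 bins, which chose the anchor. Without them the anchor stood at 0.67, and the other windows were not recomputed, so its first place is not separate from the choice. The window just below the anchor, at 123020001, was nearly the same with the En1 bins included, at 0.653 (31.9% where 48.9% were expected). The one just above, at 123100001, stood at 0.871 (43.8% where 50.3% were expected).

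These 2 neighbours also contacted En1 above expectation, at 3.48 (3.30 to 3.66) on 1485 read pairs below the anchor and 3.93 (3.73 to 4.14) on 1432 above it, against 8.97 in the anchor. The best partner of the window above the anchor was 122480001, in the domain border region below En1, with 524 read pairs and a ratio of 6.83. The side share thus changed across the anchor.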

How the data were processed

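Chromatin contacts of the En1 region were measured in what the labels list as 2 wild-type limb samples, which the authors had merged into 1 map. Raw values are counts of read pairs per pair of bins, which the authors deposited at several bin sizes; per the deposited file names, reads passed HiCUP and a mapping quality minimum of 30. The KR values are a balanced contact signal, which the authors deposited under that name. The submitters' processing notes list Bowtie2 2.3.4.1, Juicer 1.7.6, SAMtools and mm9. Both kinds of value were used at 5 kb, and at 10 kb as an alternative.

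Balancing factors were solved from raw over KR. Expected counts used the mean KR per distance over bins from 120180001 up, with missing pairs as 0; 7 of 844 bins had no KR value and were left out. Intervals are exact Poisson for counts and Wilson for shares, and there are no p-values. A border was a local minimum of insulation with a prominence of at least 0.2. The balancing factors, the expected counts and the calls of enriched partners were tested on simulated data, and the other steps were not. The anchor, the lists and the rules were chosen with earlier results of these data known. The text names all anchor and En1 bins, the 10 enriched stretches with the highest lower bound, the 5 depleted ones with the lowest upper bound, and gene starts that were called or neighbour the anchor; bins singled out elsewhere were chosen after their values were seen. Sequences are from the NCBIM37 genome, whose chromosome 1 has 197195432 bases, and genes from GENCODE M1. Python 3.11.15, numpy 2.4.6, pandas 2.3.3, scipy 1.17.1 and matplotlib 3.10.9 were used.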

Additional observations from a re-analysis of the deposited data

How the results depend on the processing

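None of the ratios, shares and scores below changed its direction under the alternatives tried. For the counts of enriched and depleted partners, the share over all windows was not recomputed under the alternatives. Whether the anchor's counts stayed above that share was therefore not tested. The ratio at the peak pair was 30.4 with the median KR signal per distance, 19.1 at 10 kb and 15.9 where the peak was chosen by raw count, against 23.6. The count of enriched partners, 76, was 195 with the median, 153 with raw counts alone, 42 of 400 at 10 kb, 131 with a threshold of 1.2, 33 with a threshold of 2, 7 against local surroundings and 37 without the 100 kb around the En1 bins, the last chosen after seeing the data. With raw counts alone 148 of 153, and with a threshold of 1.2 128 of 131, lay on the En1 side. Depleted partners numbered 34 to 151 under these settings, against 90. The share of contacts to the Insig2 side, 28.5%, was 27.3% over all bins, 42.8% within 300 kb, 30.0% without the En1 bins and 31.7% in KR signal. The share with the En1 bins, 5.77%, was 4.59% of all read pairs leaving the anchor and 5.04% in KR signal. Bin 4 held 23.5% of the KR signal with En1. The insulation score at the anchor was −0.73 with 100 kb on either side, −0.44 with 250 kb and −0.17 from raw counts. The cause of these shifts was not tested. Another expected value leaves an observed share as it is by construction.

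No paired analysis was possible because the samples form 1 group in 1 merged map, and for the same reason leaving out a replicate could not be run. Single pairs of 5 kb bins held a median of 4 read pairs, where any were found, which limits their precision.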
